A study of Homo sapiens with 8 samples.

Results

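The epidermal growth factor receptor (EGFR) family was read as 10 genes, the receptors EGFR, ERBB2, ERBB3 and ERBB4 and the ligands AREG, EREG, HBEGF, TGFA, BTC and NRG1, out of 16557 genes named on the array. The genes were chosen by symbol, through the RefSeq accession that the array gives for each probe, and no measured value entered this rule. The choice was, however, made with earlier results of these data known. The 10 genes had 17 of the 41000 probes. RNA of 2 cell populations derived from H460, a human non-small-cell lung cancer (NSCLC) cell line, was compared with RNA of the parental line on 8 two-color arrays. H460C cells were cancer stem cells (CSCs), obtained from H460 by nonadherent culture in a serum-free DMEM/F12 medium with EGF and basic FGF. H460R cells were H460 cells that had survived a 72-h exposure to cisplatin (0.5 µg/mL) and were then cultured without the drug. H460R and H460 cells grew in RPMI with 10% fetal serum. EGF is itself a ligand of EGFR, so the H460C cells received 20 ng/mL of a protein of this family that the other cells were not given. Medium, attachment and cell population cannot be told apart in this design.

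EGFR, ERBB2, ERBB3 and ERBB4 are receptor tyrosine kinases that signal as pairs. EGFR binds amphiregulin (AREG), epiregulin (EREG), HB-EGF, TGF-alpha and betacellulin (BTC), whereas ERBB3 and ERBB4 bind neuregulin (NRG1), and ERBB2 has no ligand of its own and acts as a partner. The ligands are made as membrane precursors that metalloproteases cut, and EGFR signaling drives the growth of many lung tumors.

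In the CSCs 2 ligands had higher and both measured receptors lower signals than in the parental cells. Relative to H460, the H460C cells had 6.18-fold more AREG and 1.86-fold more EREG signal, while the signal of ERBB2 was 3.23-fold lower and that of EGFR 1.64-fold lower. The EGFR log2 ratio depended on the processing, at -0.71 here and -1.57 with the scanner software's log ratio. H460R cells had another ligand pattern at the brightest probes, with NRG1 3.39-fold higher and EREG 2.33-fold lower than in H460 cells. The dimmer tested probes moved less in H460R, with log2 ratios of 0.475 for NRG1 and -0.135 for EREG. EGFR was at 1.00-fold in H460R cells, and ERBB2 was lower there as well, at a log2 ratio of -0.75. Of these values, the Rank Products test called AREG in H460C and, at its brightest probe, NRG1 in H460R. Both calls were lost with the scanner software's log ratio. The NRG1 call was also lost on the arrays with H460R in Cy3 alone and in the mean over both tested NRG1 probes. The AREG call counted both H460C samples, which could not be told apart beyond the noise of hybridization. In RNA of whole cultures, fewer expressing cells and less RNA per cell cannot be told apart. By limma, the 2 populations differed from each other in AREG, EREG, NRG1, ERBB2, EGFR and BTC. This comparison called 65.4% of all tested probes, and the BTC call was lost when the H460C samples were averaged.

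There were 2 RNA samples of H460C and 2 of H460R, each on 2 arrays of opposite dye. By the labels the H460 RNA of all 8 arrays was the same sample, so a ratio over H460 leaves out the spread of the H460 cells. The labels do not say that the RNA samples came from separate cultures, and p-values measure the spread between these samples, which may be technical. The 2 H460C samples could not be told apart beyond the noise of hybridization, since the difference between them on the arrays of one dye had a correlation of 0.0185, across the 26046 probes tested, with the same difference on the arrays of the other dye, against 0.213 for H460R. The H460C arrays were on a slide apart from the H460R arrays, and the slide cannot be told apart from the population. H460C values are therefore given as 1 sample, by its 4 arrays, and H460R values as mean ± SD of 2 samples. Rank Products and limma still counted the H460C samples as 2 unless stated, so their H460C p-values and FDRs may be too small. Between 22834 and 28499 probes per channel stood well above background. The simple-epithelium keratins KRT8, KRT18 and KRT19 were well above background in every channel. CDH1, which encodes the epithelial adhesion protein E-cadherin, was so on 4 of 4 arrays in H460C cells and on none in H460 or H460R cells. The epithelial marker EPCAM was so in 7 of 8 H460, 4 of 4 H460C and 3 of 4 H460R channels. Its log2 ratios were 1.34 in H460C and -0.105 in H460R cells. The leukocyte marker PTPRC was above background in no channel, CDH5 of endothelium in 1 of 8 H460 channels and COL1A2 of fibroblasts in 1 H460 and 1 H460C channel. By contrast, DCN of fibroblasts and CD14 of monocytes were above background in all 8 H460 channels and had log2 ratios of -1.74 and -0.94 in H460C cells, and PECAM1 of endothelium was above background in the 4 H460C channels only. CDH1, EPCAM and PECAM1 thus entered the tests through H460C alone. The part of these markers in the results was not tested.

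Unless called signals, values are log2 ratios over H460, on arrays named by RNA sample and by the dye of the studied cells. A probe was tested when all channels of H460, of H460C or of H460R stood well above background for it. This left 9 family probes in 7 genes: 2 receptors (EGFR and ERBB2) and 5 ligands (all but TGFA). The TGFA probe and 1 of the probes of ERBB4, BTC and NRG1 were not well above background in any channel, so these 4 probes gave no measured ratio. The remaining 4 probes without a test, 1 each of ERBB2, ERBB3, ERBB4 and HBEGF, rose above background in some channels only.

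**Figure D1:**
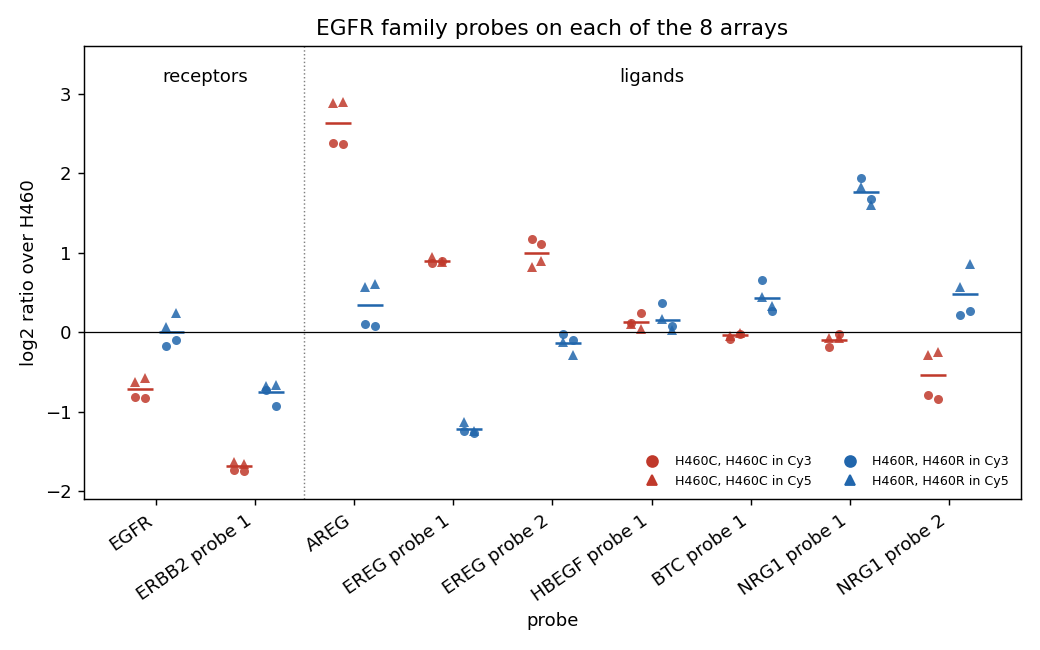
Log2 ratio over H460 (vertical axis) of the 9 tested family probes (horizontal axis) on each of the 4 H460C arrays (red) and 4 H460R arrays (blue), with circles and triangles for the dye of the studied cells and a bar at the mean. AREG stands at 2.36 to 2.89 in H460C, NRG1 probe 1 at 1.60 to 1.94 in H460R, and ERBB2 probe 1 is below 0 on all 8 arrays.

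Among the receptors, ERBB2 had the lowest ratios. Its brighter probe, printed at 10 spots per array, gave -1.73 and -1.63 for H460C sample 1 (Cy3 and Cy5) and -1.74 and -1.66 for sample 2. In H460R cells the probe gave -0.72 and -0.68 for sample 1 and -0.93 and -0.67 for sample 2. ERBB2 was thus below H460 on all 8 arrays, and the H460C arrays were all below the H460R arrays. The mean was -1.69 in H460C, and 0.783% of all tested probes were lower. The 10 spots agreed, with means between -1.73 and -1.67. In H460R the mean was -0.75 ± 0.068 (SD, n = 2). Neither ratio was called by Rank Products (FDR = 0.0792 in H460C and 0.340 in H460R), whereas limma called both lower (adjusted p = 9.43e-07 and 1.54e-05). The H460C value was 0.94 below the H460R value on the log2 scale (SE 0.052, limma adjusted p = 3.71e-05; 0.00744 with the H460C samples counted as 1). The dimmer ERBB2 probe was above background in 6 of 8 H460, 3 of 4 H460C and 2 of 4 H460R channels and showed means of -0.20 and -0.10.

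EGFR, the receptor of most ligands listed here, was read by 1 probe at 10 spots. The H460C arrays gave -0.81 and -0.63 for sample 1 and -0.83 and -0.58 for sample 2. The H460R arrays gave -0.18 and 0.06 for sample 1 and -0.10 and 0.24 for sample 2. All H460C arrays lay below H460 and below every H460R array, while the H460R arrays lay on both sides of 0. The means were -0.71 in H460C (Rank Products FDR = 0.470, limma adjusted p = 2.04e-05) and 0.005 ± 0.093 (SD, n = 2) in H460R (Rank Products FDR = 1, limma adjusted p = 0.921). Their difference was -0.72 (SE 0.058, 95% interval -0.86 to -0.57, limma adjusted p = 0.000151; 0.0134 with H460C counted as 1 sample). With the log ratio that the scanner software computed, the H460C mean was -1.57 and the difference -1.61.

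ERBB3, the main neuregulin receptor of epithelial cells, was near background, in 2 of 8 H460, 2 of 4 H460C and 3 of 4 H460R channels above it, with mean ratios of 0.15 and -0.11. On the H460C arrays no H460 channel of the probe was well above background. The brighter ERBB4 probe was above background in 1 H460 and 1 H460R channel. Neither receptor was tested.

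AREG showed the largest ratio of the family. The H460C arrays gave 2.38 and 2.88 for sample 1 (Cy3 and Cy5) and 2.36 and 2.89 for sample 2. The H460R arrays gave 0.10 and 0.57 for sample 1 and 0.07 and 0.61 for sample 2. Every array was above H460, and all H460C arrays were far above the H460R arrays. Arrays of opposite dye differed by 0.52 in H460C and 0.51 in H460R, which was more than samples of the same dye did. The mean in H460C was 2.63 (6.18-fold), rank 78 of 26046 probes, and AREG was called by Rank Products (FDR = 0.0254). The call was lost with the log ratio of the scanner software, where the value was 2.77 (FDR = 0.115). Rank Products took the H460C samples as independent rankings, and it was not run with them counted as 1 sample. In H460R the mean was 0.34 ± 0.004 (SD, n = 2; 1.26-fold), not called by Rank Products (FDR = 0.843) and called higher by limma (adjusted p = 0.000152). The populations differed by 2.29 (SE 0.043, 95% interval 2.18 to 2.40, limma adjusted p = 1.94e-06; 0.00345 with H460C counted as 1 sample), or 4.89-fold. On 1 H460C array (sample 2, Cy3) the scanner software marked the AREG spot as an outlier, and without that array the H460C mean was 2.76 (FDR = 0.0204). AREG has one probe here at a single spot per array.

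EREG had ratios of opposite sign in the populations. Its brighter probe gave 0.87 and 0.95 for H460C sample 1 and 0.89 and 0.88 for sample 2. The same probe gave -1.24 and -1.13 for H460R sample 1 and -1.27 and -1.25 for sample 2. The H460C arrays all lay above H460 and the H460R arrays all below it, with gaps between the dyes of 0.035 and 0.065. The means were 0.90 in H460C (1.86-fold, Rank Products FDR = 0.363, limma adjusted p = 4.95e-06) and -1.22 ± 0.053 (SD, n = 2) in H460R (2.33-fold lower, Rank Products FDR = 0.0808, limma adjusted p = 4.55e-06). The difference of 2.12 (SE 0.049) was called by limma (adjusted p = 3.04e-06; 0.00382 with H460C counted as 1 sample), and it was 3.04 with the log ratio of the scanner software. With that log ratio EREG was also called lower in H460R by Rank Products (-1.94, FDR = 0.0386). A second, dimmer EREG probe gave 1.00 in H460C and -0.14 ± 0.085 (SD, n = 2) in H460R. With the scanner software's log ratio its H460C value was 2.52, above that of the brighter probe. This probe was above background in 4 of 8 H460 and 2 of 4 H460R channels and in all 4 H460C channels, and it entered the test through H460C alone.

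AREG and EREG lie side by side on chromosome 4. In the RefSeq order of protein-coding genes EPGN, EREG, AREG and BTC follow one another, all encoding ligands of this family. The 250 bases before the start sites of AREG and EREG are shown because of the 10 genes these neighbors were the 2 called higher in H460C than in H460R cells. They come from RefSeq (GRCh38.p14), at chr4:74444886-74445135 for AREG and chr4:74364895-74365144 for EREG, both on the plus strand, and capitals mark motif matches. The motifs searched, on both strands, were TGACGTCA (the cyclic AMP response element, CRE), TGANTCA (AP-1), GCGNGGGCG (EGR1) and GGGCGG (Sp1), of which the last may overlap the EGR1 motif.
AREG: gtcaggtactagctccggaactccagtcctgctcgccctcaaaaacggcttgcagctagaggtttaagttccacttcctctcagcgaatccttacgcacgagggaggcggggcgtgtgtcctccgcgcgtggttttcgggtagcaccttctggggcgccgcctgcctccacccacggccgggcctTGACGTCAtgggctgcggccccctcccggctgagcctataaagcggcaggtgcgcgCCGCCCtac
EREG: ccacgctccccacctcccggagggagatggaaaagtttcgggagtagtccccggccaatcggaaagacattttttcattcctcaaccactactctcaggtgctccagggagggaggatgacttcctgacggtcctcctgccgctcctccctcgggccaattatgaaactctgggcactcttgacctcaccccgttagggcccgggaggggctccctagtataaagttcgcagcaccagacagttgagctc
The AREG window holds 1 CRE match, 65 bases before the start site, and 1 Sp1 match, 9 bases before it. The EREG window, like those of BTC and EPGN, holds none of the 4 motifs. Of 35116 promoters of the same length, 1.65% hold the CRE letters, 42.6% those of Sp1, 6.57% those of AP-1 and 8.41% those of EGR1. A match is a description of the letters and not of binding. Promoters of 8 family genes were in the table. Of the receptors among them, the ERBB2 window holds 1 AP-1 match, the ERBB4 window 1 Sp1 match, and EGFR, with a window at each of 2 start sites, 2 Sp1 matches in one and 2 AP-1 matches in the other. The HBEGF window holds 5 Sp1 matches, and TGFA 3 in one of its windows.

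NRG1 was the highest ligand ratio of the H460R cells. Its brightest probe, designed on NM_013957, gave 1.94 and 1.83 for H460R sample 1 (Cy3 and Cy5) and 1.67 and 1.60 for sample 2. The H460C arrays gave -0.19 and -0.08 for sample 1 and -0.03 and -0.08 for sample 2. The H460R arrays all stood far above H460, and the H460C arrays stayed close to it. The mean in H460R was 1.76 ± 0.18 (SD, n = 2; 3.39-fold), rank 86 of the tested probes, and Rank Products called it (FDR = 0.0314). The call was lost with the scanner software's log ratio (2.03, FDR = 0.132) and on the arrays with H460R in Cy3 alone (1.81, FDR = 0.0637). It was also lost in the mean over both tested NRG1 probes (1.12, FDR = 0.162). In H460C the mean was -0.095 (Rank Products FDR = 1, limma adjusted p = 0.210). H460C was 1.86 below H460R on the log2 scale (SE 0.089, limma adjusted p = 2.31e-05; 0.00613 with H460C counted as 1 sample), or 3.62-fold. A second probe, on NM_013962, moved less and in the same order, with -0.79 and -0.29 for H460C sample 1 and -0.84 and -0.25 for sample 2. In H460R it gave 0.22 and 0.57 for sample 1 and 0.26 and 0.85 for sample 2. Its difference was -1.02 (limma adjusted p = 5.96e-05). The third probe, on NM_013959, was not well above background. The accessions are those of the array design, and which NRG1 transcripts each probe reads was not tested.

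BTC and HBEGF showed small ratios. BTC gave -0.09 and -0.05 for H460C sample 1 and -0.02 and -0.01 for sample 2. Its H460R arrays gave 0.66 and 0.44 for sample 1 and 0.26 and 0.33 for sample 2. The H460R arrays were all above the H460C arrays, with a mean of 0.42 ± 0.18 (SD, n = 2; limma adjusted p = 0.00126). The difference of -0.47 (SE 0.088, limma adjusted p = 0.00479) was no longer called with H460C counted as 1 sample (adjusted p = 0.0697) or without either H460C sample (0.0789 and 0.0614). With the scanner software's log ratio it was -0.93. HBEGF was the 1 tested probe whose arrays overlapped between the populations, at 0.04 to 0.24 in H460C and 0.02 to 0.36 in H460R. Its means were 0.13 in H460C (limma adjusted p = 0.0795) and 0.16 ± 0.15 (SD, n = 2) in H460R (limma adjusted p = 0.0386). The difference was -0.03, with a 95% interval of -0.22 to 0.16 (limma adjusted p = 0.731; 0.0413 without H460R sample 2).

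**Figure D2:**
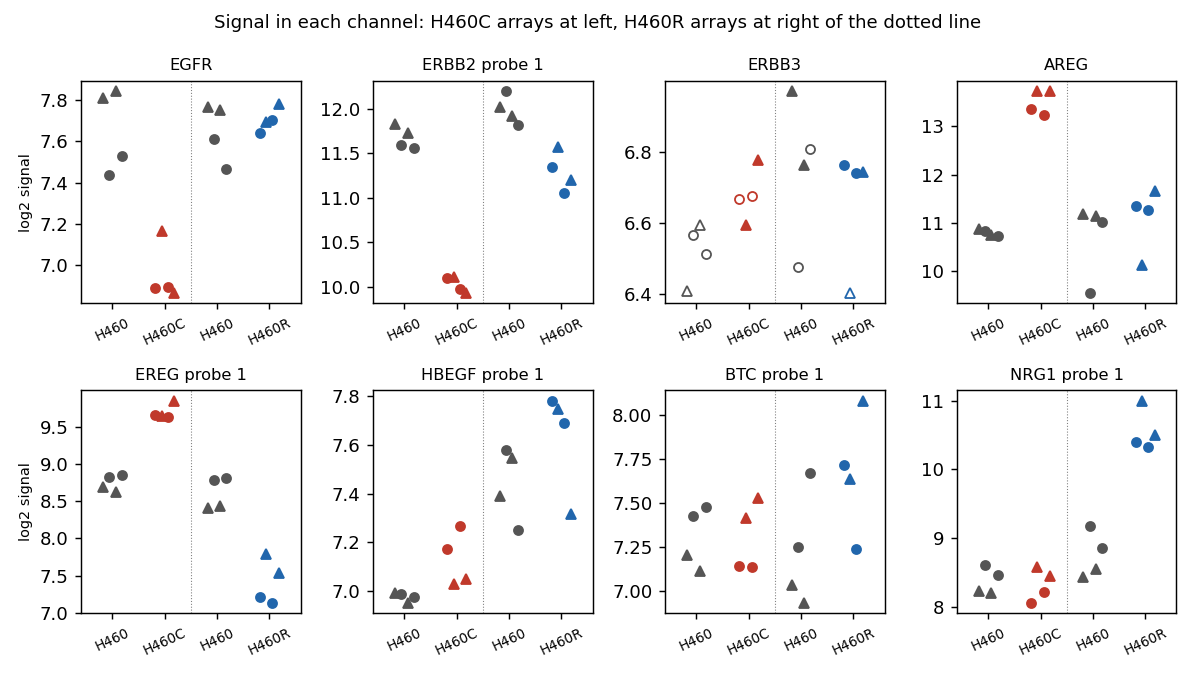
Log2 signal (vertical axis, a separate scale in each panel) of 8 family probes in each channel of the H460C arrays (left of the dotted line) and of the H460R arrays (right of it), with circles for Cy3, triangles for Cy5, and open symbols for channels not well above background. AREG lies at 13.24 to 13.73 in H460C cells against 9.54 to 11.19 in H460 cells, and NRG1 probe 1 at 10.32 to 11.00 in H460R cells against 8.20 to 9.17 in H460 cells.

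The signals in the single channels are log2 intensities and not ratios, and are compared within a probe only. AREG ranged from 13.24 to 13.73 in H460C cells, from 10.13 to 11.66 in H460R cells and from 9.54 to 11.19 in H460 cells. The H460R and H460 ranges overlap through the array of H460R sample 1 in Cy5, where both channels were low (10.13 and 9.54). On each H460R array the H460R channel was above the H460 channel. The H460C channels stand above both ranges. EREG probe 1 ranged from 9.64 to 9.86 in H460C, from 8.40 to 8.86 in H460 and from 7.14 to 7.79 in H460R cells, with no overlap between the 3 kinds of cells. NRG1 probe 1 ranged from 10.32 to 11.00 in H460R cells, from 8.06 to 8.57 in H460C and from 8.20 to 9.17 in H460 cells, the last 2 overlapping. ERBB2 ranged from 11.56 to 12.20 in H460, from 11.05 to 11.57 in H460R and from 9.93 to 10.11 in H460C cells. The ERBB2 signal was thus lowest in H460C. Its H460R channels met H460 channels of the H460C arrays only, and lay below all H460 channels of the H460R arrays (11.82 to 12.20). EGFR ranged from 6.87 to 7.17 in H460C cells, below all H460 (7.44 to 7.84) and H460R (7.64 to 7.78) channels.

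Ligands and receptors were then set side by side. At the brightest probe of each gene, Rank Products called 1 of 7 genes higher in H460C (AREG) and 0 lower, while 0.499% of all tested probes were called higher and 0.499% lower. At an unadjusted p under 0.05 it marked 2 genes higher (AREG and EREG) and 2 lower (ERBB2 and EGFR), against 9.34% of all probes in each direction. For H460C, limma called the same 2 and 2, where it called 36.0% of all probes higher and 41.1% lower. In H460R, Rank Products called 1 gene higher (NRG1) and 0 lower (0.480% and 0.453% of all probes). At an unadjusted p under 0.05 it marked NRG1 higher and ERBB2 and EREG lower, against 9.1% and 9.08% of all probes. There limma called 4 ligands higher (AREG, HBEGF, BTC and NRG1) and ERBB2 and EREG lower, against 36.2% and 41.2% of all probes. Between the populations, limma called 2 genes higher in H460C (AREG and EREG) and 4 higher in H460R (EGFR, ERBB2, BTC and NRG1), where 33.7% and 31.8% of all probes were called. As 65.4% of all probes were called in this comparison, these counts are near the background. At the same probes, 1 gene had a ratio over 1 in H460C (AREG, 4.22% of all probes) and 1 below -1 (ERBB2, 3.50%), and in H460R 1 over 1 (NRG1, 2.81%) and 1 below -1 (EREG, 1.77%). A difference of over 1 was found for AREG, EREG and NRG1, which were 3 of the 5 tested ligands and none of the 2 tested receptors, against 7.26% of all probes. The receptors' side of this cut depended on the processing. ERBB2 was at -0.94 here and at -1.05 at its lowest over the alternatives, and EGFR at -0.72 and -1.61. The 4 H460C arrays were all above the 4 H460R arrays for 3 of 9 probes and all below for 5, against 18.7% and 18.6% of all tested probes. Without EREG probe 2, which entered through H460C alone, they were all above for 2 of 8. The median ratio of the tested receptors was -1.20 in H460C and -0.37 in H460R, that of the ligands 0.13 and 0.34, and that of all tested probes -0.03 in both.

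**Figure D3:**
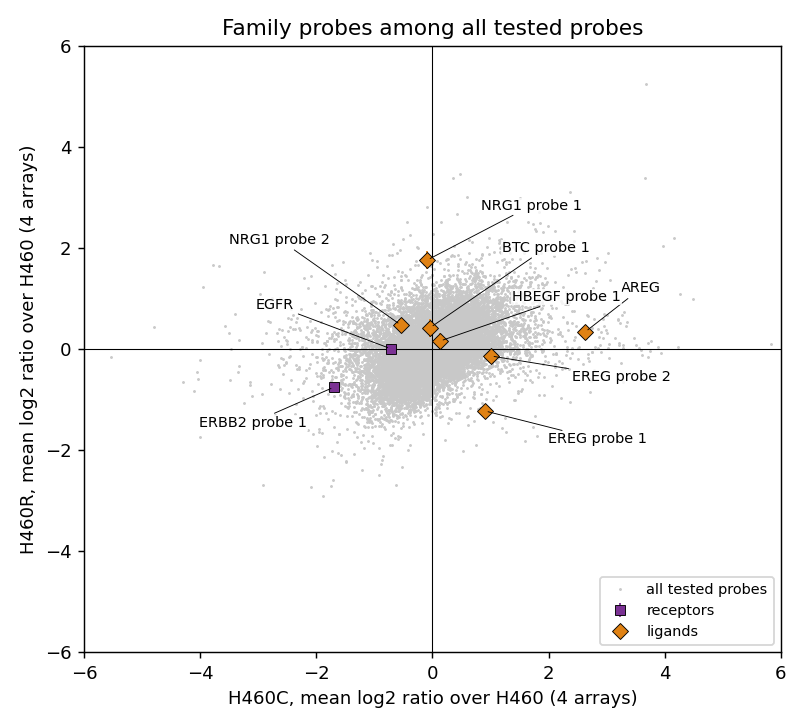
Mean log2 ratio over H460 in H460C (horizontal axis) and in H460R (vertical axis) of the tested receptor probes (squares) and ligand probes (diamonds, vertical bars for the SD of 2 H460R samples, mostly smaller than the symbols) and of all 26046 tested probes (gray). AREG lies far right at 2.63, NRG1 probe 1 high at 1.76, EREG probe 1 at lower right and ERBB2 probe 1 at lower left.

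The genes whose ratios were most like those of AREG, by Euclidean distance over the 8 arrays, were PRUNE2 (distance 0.564), SQLE (0.587), NMB (0.668), CSRP2 (0.707) and C5AR1 (0.780). SQLE, an enzyme of sterol synthesis, had mean ratios of 2.64 in H460C and 0.28 in H460R. For NRG1 probe 1 they were CCN1 (0.374), TMEM140 (0.445), SYNM (0.465), SUCNR1 (0.515) and ACTA2 (0.662). CCN1, a secreted matrix-associated protein, had mean ratios of -0.12 in H460C and 1.81 in H460R, and ACTA2, smooth muscle actin, of -0.11 and 1.53.

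Genes that act with the receptors were read from 4 lists of 37 genes: other ligands, proteins of ligand shedding, receptor adaptors and effectors, and receptor brakes and turnover. Of these, 33 were tested, RHBDL2 and GAB1 were too dim, and NRG3 and SOS2 had no probe. Rank Products called PIK3R1, the regulatory subunit of phosphoinositide 3-kinase, lower in H460C (-1.99, FDR = 0.0456) and no gene higher, and it called 0 genes in H460R. The PIK3R1 call was lost with another background correction and normalization of the scanner files (-1.92, FDR = 0.0516). A second, dimmer PIK3R1 probe gave -1.32 in H460C (Rank Products FDR = 0.150, not called) and 0.04 in H460R. The call at the brighter probe counted both H460C samples as independent. At an unadjusted p under 0.05 Rank Products marked 2 genes higher and 7 lower in H460C, and 3 higher and 1 lower in H460R, where it marked 9.34% of all probes each way in H460C and 9.1% and 9.08% in H460R. By limma 10 were higher and 14 lower in H460C (36.0% and 41.1% of all probes), and 12 higher and 13 lower in H460R (36.2% and 41.2%). Between the populations limma called 16 higher in H460C and 10 higher in H460R (33.7% and 31.8% of all probes).

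The other ligands were EPGN, EGF, NRG2 and NRG4. EPGN (epigen), the neighbor of EREG, gave 2.01 and 1.74 for H460C sample 1 and 1.97 and 1.91 for sample 2. In H460R it gave 1.31 and 1.03 for sample 1 and 1.35 and 1.16 for sample 2. EPGN was thus above H460 on all 8 arrays, with means of 1.91 in H460C (Rank Products FDR = 0.0732) and 1.21 ± 0.060 (SD, n = 2) in H460R (FDR = 0.143). EGF itself had means of -0.99 in H460C cells, which were grown with the EGF protein, and 0.46 ± 0.011 (SD, n = 2) in H460R, a difference of -1.45 (SE 0.045, limma adjusted p = 6.17e-06). NRG2, a relative of NRG1, had -0.79 in H460C and -0.08 in H460R, and NRG4 had 0.32 and 0.04. The 4 tested genes of this list split evenly by limma in H460C (EPGN and NRG4 higher, EGF and NRG2 lower), against 36.0% of all probes higher and 41.1% lower.

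Among the 8 tested genes of ligand shedding, ADAM9, a membrane metalloprotease, had the lowest ratio in H460C (-1.43) and 0.30 ± 0.081 (SD, n = 2) in H460R. ADAM17, the protease that releases AREG and several other ligands, had -0.09 in H460C and had -0.52 ± 0.078 (SD, n = 2) in H460R. A second, dimmer ADAM17 probe gave -0.23 in H460C and -0.15 in H460R. Limma called the difference at the brighter probe (adjusted p = 0.00133) and not that at the dimmer probe (adjusted p = 0.238). By limma 2 of the 8 were higher and 4 lower in H460C (36.0% and 41.1% of all probes), and 4 and 4 in H460R (36.2% and 41.2%). Of the 9 tested adaptors and effectors, SHC1, which couples the receptors to RAS, had -1.14 in H460C and 0.50 ± 0.031 (SD, n = 2) in H460R. At its dimmer probe SHC1 had -0.56 in H460C and 0.145 in H460R. There the H460R arrays gave 0.60 and 0.58 in Cy3 and -0.31 and -0.29 in Cy5. PIK3R1 had -1.99 in H460C and 0.36 ± 0.092 (SD, n = 2) in H460R. Its H460R arrays differed by dye, with 0.86 and 0.70 in Cy3 and -0.01 and -0.11 in Cy5. At their brightest probes GRB2, SOS1, PLCG1 and NCK1 lay between -0.08 and 0.16 in both populations. A dimmer GRB2 probe gave 0.46 in H460C and 0.06 in H460R, and another gave -0.10 and -0.41. Among the 12 genes of receptor brakes and turnover, ERRFI1, an inhibitor of EGFR kinase, had 0.69 in H460C and -0.26 ± 0.057 (SD, n = 2) in H460R. The difference was 0.95 (limma adjusted p = 9.09e-05). On 2 arrays the spot of this probe was marked as an outlier. The dimmer ERRFI1 probe gave 0.71 in H460C and 0.06 in H460R, where limma did not call it (adjusted p = 0.161). Its difference was 0.65 (limma adjusted p = 9.93e-05). CBLB, a ubiquitin ligase that acts on EGFR, went the other way from ERRFI1 at the brighter probe. It had -0.70 in H460C and 0.61 ± 0.064 (SD, n = 2) in H460R. The dimmer CBLB probe gave -0.34 in H460C and 0.075 in H460R, where limma did not call it (adjusted p = 0.126). PTPN1, a tyrosine phosphatase, had 0.60 and 0.72 ± 0.018 (SD, n = 2), and limma did not call its difference (adjusted p = 0.0534). In this list limma called 4 higher and 5 lower in H460C (36.0% and 41.1% of all probes), and 4 and 6 in H460R (36.2% and 41.2%).

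**Figure D4:**
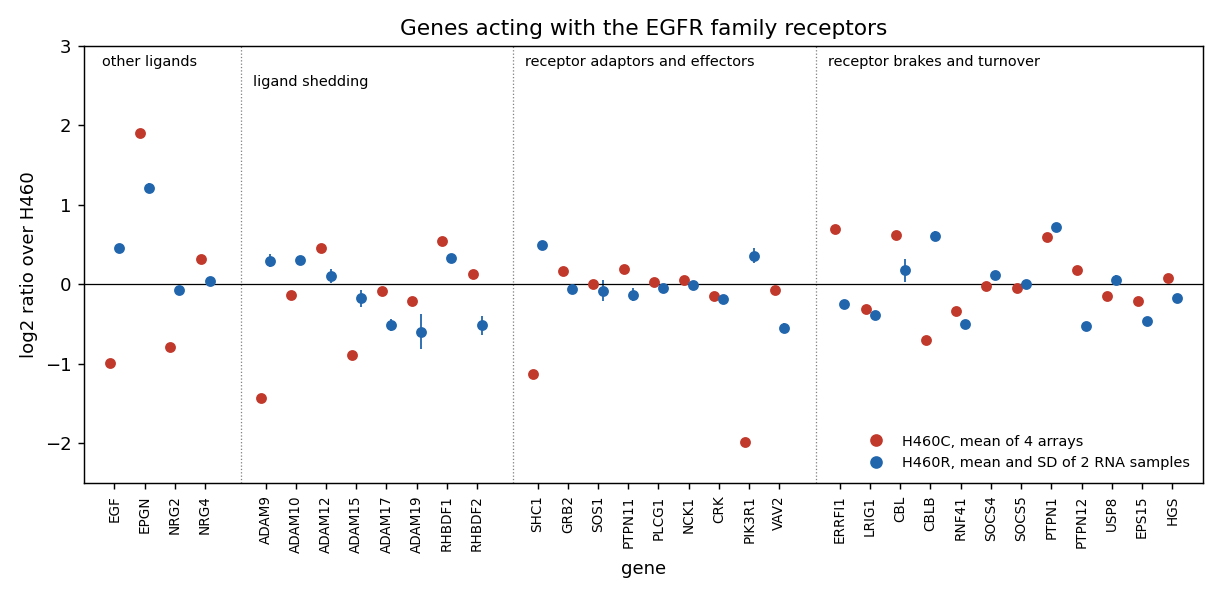
Mean log2 ratio over H460 (vertical axis) of the 33 tested genes of the 4 lists (horizontal axis) in H460C (red, mean of 4 arrays) and H460R (blue, with bars for the SD of 2 RNA samples). EPGN is high in both populations, and the means of PIK3R1, ADAM9, SHC1 and EGF are low in H460C and above 0 in H460R. For PIK3R1 only the arrays with H460R in Cy3 were above 0.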

How the data were processed

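RNA was measured on 8 Agilent whole-genome arrays (4x44K). The authors' value table, deposited as log2 ratios (H460 in the denominator, dyes already turned), gave the main values. Its background correction and normalization are not given in the sources used here (the labels name limma), and its ratios correlated at 0.949 to 0.997 with those from normexp and loess. Per the file headers, the scanner files came from Feature Extraction 10.1.1.1. Their deposited median spot and background intensities, without normalization, gave the signal levels (normexp, offset 50, loess, Aquantile), and their log10 ratios, which the authors' software had background-subtracted and dye-normalized, gave an alternative. On 1 array these lacked decimal points and were divided by 10 to the power of 9. The deposited score of 0 or 1 for spots well above background was used as given. Columns without a sample numbered 0.

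Spots were averaged per probe and dye-swapped arrays per RNA sample. Of 41000 probes, 23958 were named, for 16557 symbols, through RefSeq accessions. A probe was tested (26046 in all) when all channels of H460, H460C or H460R had a share of 0.5 or more of its spots well above background. Each population was compared with H460 by Rank Products, the method the study names, with exact p-values for the product of both ranks, adjusted by Benjamini-Hochberg over all tested probes in each direction (FDR 0.05). Both ratios share the H460 RNA and are not independent. Rank Products also took the samples of a population as independent, which the H460C samples may not be. H460C and H460R were compared by limma 3.58.1 in R 4.3.3 (two-sided, Benjamini-Hochberg over all tested probes, with 2 residual and 3.75 prior degrees of freedom). Each gene was read at its brightest probe. The named genes were all members with every probe, 4 lists of genes acting with the receptors, cell type markers, and the 5 genes nearest to the strongest member of each population. The members and lists were chosen with earlier results of these data known. On simulated data with 6996 probes of which 200 were changed, limma recovered 99.5% (8 false calls) for H460C minus H460R, and Rank Products recovered 71.4% of log2 changes of 2 to 3 and 0% of those of 1 for H460C over H460 (0 false calls). The simulation drew the samples as independent and changed 200 of 6996 probes, whereas limma called 65.4% of the real probes. Its recovery and false calls are therefore not error rates of these data. Each population was hybridized and scanned as a slide of its own, and these cannot be told apart. The number of arrays limits the precision. Promoters were read with Python 3 from RefSeq tables, without the bases after the start site.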

Additional observations from a re-analysis of the deposited data

How the results depend on the processing

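Alternatives were the normexp and loess values, the scanner software's log ratio, no filter or a stricter one, the arrays of a single dye, the mean over a gene's probes, limma in place of Rank Products, each sample left out and, added after seeing the data, outlier-marked spots left out. No called value reversed. Of single-probe values, 272 kept their side of the threshold, 7 lost a call and 36 gained one, and 4 of 148 uncalled values changed sign. The log ratio of the scanner software left 0 member genes called higher in H460C and 0 in H460R, and 1 lower in H460R. In H460R the arrays with H460R in Cy3 and the mean over probes also left 0 called higher. With limma in place of Rank Products the members called higher and lower were 2 and 2 in H460C and 4 and 2 in H460R, and the listed pathway genes 10 and 14 in H460C and 12 and 13 in H460R. Without each replicate in turn, which uses limma with the lone sample assumed to vary like the other population, 2 to 2 members were higher and 2 to 2 lower in H460C, and 3 to 4 higher and 2 to 2 lower in H460R. Among the pathway genes, no filter gave 1 higher in H460C (EPGN, FDR = 0.0489), and normexp and loess gave 0 lower. The cause of these changes was not tested.

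The replicate numbers did not pair the samples (2 pairs, correlation of the deviations 0.0419). With the replicate block limma called 15833 probes different between H460C and H460R in place of 17044, and the same 2 and 4 member genes. With the H460C samples averaged into 1 it called 10416, and BTC was lost. The value table's ratios had a slope of 0.471 to 0.530 on the software's log ratios. Dim probes limit what can be said of ERBB3, ERBB4 and TGFA.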
